A study of Drosophila melanogaster with 8 samples.

Results

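The larval serum proteins and the larval fat body proteins were followed here as transcripts in the fat body of adult Drosophila melanogaster females. The set was chosen by name and holds 6 of the 17411 genes in each deposited file: Lsp1alpha, Lsp1beta, Lsp1gamma, Lsp2, Fbp1 and Fbp2. RNA-seq was run on cuticle with the fat body attached, from flies 1 week old. The 9G8 RNAi flies (yolk-Gal4>9G8RNAi, n = 4 libraries) carry a hairpin against 9G8, an SR-type splicing factor whose gene is listed as x16, under yolk-Gal4, which drives expression in adult female fat body. Control flies (yolk-Gal4/w1118, n = 4) carry the same driver over the w1118 chromosome and no hairpin, so an effect of the hairpin, of its insertion and of strain background cannot be told apart. The labels do not say how many flies went into a library or whether libraries came from separate cultures, so p-values measure only the spread between these libraries.

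The fly's larval serum proteins are hexamerins, storage proteins related in sequence to the hemocyanins and prophenoloxidases of arthropods. The larval fat body makes them late in larval life and secretes them into the hemolymph. Before metamorphosis the fat body takes them back up and stores them in granules, and they then serve as a source of amino acids for the adult tissues that form. LSP1 is built from the alpha, beta and gamma subunits, whose genes lie on different chromosome arms, and LSP2 is a separate protein. Fbp1 encodes a hexamerin-related protein that acts as a receptor in the uptake of larval serum protein and is a classic target of ecdysone in the larval fat body. Fbp2 encodes a protein related to alcohol dehydrogenase. The comparison asks whether the level of these transcripts in the adult female differs when 9G8 is targeted in the fat body.

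Libraries held 25396063 to 36181492 counts. Levels are given as CPM, counts scaled to library size with TMM factors of 0.758 to 1.54, and comparisons between genes use CPM per kilobase of exon (RPKM). The transcript of the targeted gene, x16, was at 198.4, 34.6, 103.0 and 49.5 CPM in 9G8 RNAi libraries 1 to 4, against 60.4, 65.6, 325.4 and 144.9 CPM in controls 1 to 4. The groups overlapped, and no lower x16 level was detectable (log2 fold change -0.63, SE 0.63, adjusted p = 0.862 by edgeR). Without control 3 the log2 fold change was 0.10. Control 3, 9G8 RNAi 1 and control 4 had the most x16 and also the highest summed germline markers (339.9, 313.3 and 243.2 CPM). The next highest germline sum, 148.8 CPM, was in 9G8 RNAi 2, which had the least x16. The part of germline tissue in the x16 level was not tested. Libraries also differed in how much long transcripts contributed. A long-gene score, the median log2 deviation of the 2962 tested genes of at least 3000 exonic bases minus that of the 1895 under 1000 bases, was 0.26, 1.54, -0.25 and -0.86 in 9G8 RNAi libraries 1 to 4 and -0.18, -0.65, -0.50 and 0.63 in controls 1 to 4. Of 8 fat body markers, 7 were abundant enough to test, and the list had a summed level of 15333 to 26628 CPM in 9G8 RNAi and 9004 to 15939 CPM in controls. The other, Pepck, was listed at 0 throughout, and all of its 2486 exonic bases are shared with CG45087. The 7 tested markers did not move together. Their log2 fold changes were 1.58 for Yp1, 1.60 for Yp2, 0.93 for Yp3, 0.67 for Desat1, 0.25 for CG3523 (FASN1), -0.01 for Rfabg and -0.62 for Lsd-1. Of these, edgeR called only Yp2.

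Among the 6 genes, Lsp2 was lower in 9G8 RNAi, and no other passed the test. Lsp1beta was abundant in adults of both genotypes and took 91.7% to 96.6% of the reads assigned to the set in 9G8 RNAi libraries and 84.9% to 86.1% in controls. Lsp2 reads were counted over only 381 of its 2477 exonic bases, so these shares do not give the order of the RNA levels. Lsp1gamma was scarce, and Lsp1alpha, Fbp1 and Fbp2 were at or near the limit of detection. The low-count filter kept 3 of the 6 genes (Lsp1beta, Lsp1gamma and Lsp2), and 1 of these 3 was called. Of all 9846 tested genes, 3.21% were called in either direction and 2.21% were lower.

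Lsp1beta encodes the beta subunit of LSP1 (FBgn0002563, 2L:898500-901316 on BDGP6, plus strand, exonic length 2749 bases). It was at 134.3, 364.1, 146.2 and 185.9 CPM in 9G8 RNAi libraries 1 to 4, against 472.7, 182.8, 163.0 and 600.5 CPM in controls 1 to 4. Controls 1 and 4 and 9G8 RNAi 2 were high, the other 5 libraries lay close together, and the groups overlapped. The means were 207.6 ± 106.6 CPM in 9G8 RNAi and 354.7 ± 216.5 CPM in controls (SD, n = 4 each). The quasi-likelihood test of edgeR put the log2 fold change at -0.77, with an SE of 0.50 and a Benjamini-Hochberg adjusted p of 0.658. Permuting the libraries exactly, two-sided, gave an unadjusted p = 0.229. Raw counts were 3579 to 16906 in 9G8 RNAi and 5045 to 20151 in controls, so the spread between libraries and not the depth limited this comparison. The highest library exceeded the lowest 2.71-fold within 9G8 RNAi and 3.68-fold within controls. In controls the SD of log2 CPM was 0.95, larger than that of 86.2% of tested genes. The 3 libraries with most Lsp1beta included those with the highest long-gene scores, 9G8 RNAi 2 and control 4, but also control 1, whose score was -0.18. The part of that score in the Lsp1beta levels was not tested.

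**Figure D1:**
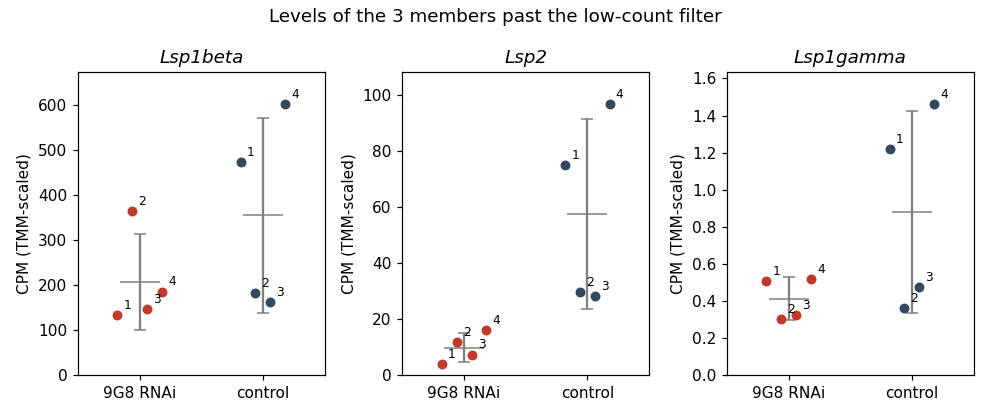
Levels of Lsp1beta, Lsp2 and Lsp1gamma in CPM (TMM-scaled, linear axes from 0) in each library, numbered by replicate, with the mean and SD in grey. Lsp2 is at 4.06 to 16.2 CPM in 9G8 RNAi and 28.4 to 96.5 CPM in controls, without overlap, while Lsp1beta and Lsp1gamma overlap between the genotypes.

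Lsp2 encodes the subunit of the other larval serum protein (FBgn0002565, 3L:12129393-12131869, plus strand, exonic length 2477 bases). It was at 4.06, 12.0, 7.44 and 16.2 CPM in 9G8 RNAi libraries 1 to 4, against 74.9, 29.7, 28.4 and 96.5 CPM in controls 1 to 4. All 9G8 RNAi libraries lay below all controls, an arrangement that 5.78% of tested genes showed. Lsp2 averaged 9.93 ± 5.31 CPM in 9G8 RNAi and 57.4 ± 33.9 CPM in controls (SD, n = 4 each) and was 5.78-fold lower (log2 fold change -2.53, SE 0.53, adjusted p = 0.0224 by edgeR). Permuting the libraries exactly, two-sided, gave an unadjusted p = 0.0286, the smallest that 4 against 4 libraries allow. Raw counts were 168 to 558 in 9G8 RNAi and 820 to 3240 in controls. The call ended when 9G8 RNAi 1, 2 or 3 or control 1 or 4 was left out (adjusted p = 0.0607, 0.0810, 0.0808, 0.0686 and 0.0523), while the log2 fold change stayed between -2.87 and -2.14. It ended too without 9G8 RNAi 2 and control 4 together (log2 fold change -2.28, adjusted p = 0.138), and held with the long-gene score as a covariate (-2.53, adjusted p = 0.0399). In whole tissue, fewer cells that express a gene and less RNA per cell cannot be told apart.

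Lsp2 was counted from only part of its transcript. CR11538, an annotated gene on the opposite strand (3L:12129103-12131488), shares 2096 of the 2477 exonic bases of Lsp2. The 381 bases at the 3′ end of Lsp2, 3L:12131489-12131869, belong to no other gene. Reads in shared bases were left uncounted, whichever the strand, as the files themselves show: of 133 genes whose every exonic base is shared with the opposite strand, 132 had no read in any library, as did 412 of the 413 genes fully shared on the same strand. Among 12002 genes with no shared base, 4.96% were at 0. CR11538, counted outside the same shared bases, had 0 to 5 counts per library. The Lsp2 values therefore rest on 15.4% of its exonic length. They compare libraries over the same stretch, but the level per full exonic length is understated. Whether reads that cross into the shared bases were counted is not shown, so the level over the 381 bases may be understated too. A difference confined to the 3′ end and a difference over the whole transcript cannot be told apart in these counts.

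**Figure D2:**
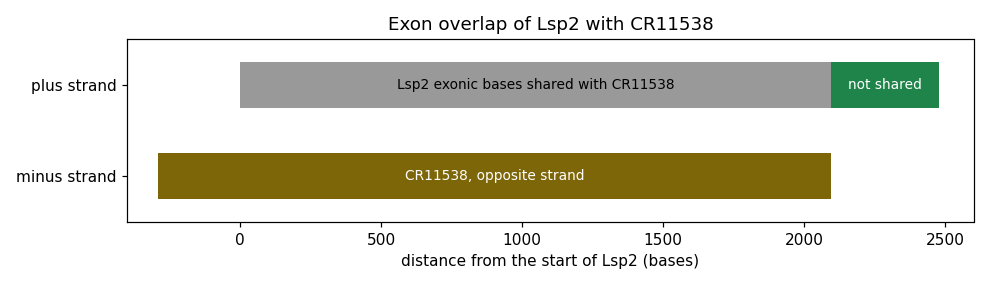
Exons of Lsp2 (plus strand, above) and CR11538 (minus strand, below) to scale, in bases from the start of Lsp2. Only the green part, 381 bases at the 3′ end, is shared with no other gene.

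The order of the levels depended on this choice. Over the full exonic length, Lsp1beta was at 75.5 ± 38.8 RPKM in 9G8 RNAi and 129.0 ± 78.8 RPKM in controls, and Lsp2 at 4.01 ± 2.14 RPKM in 9G8 RNAi and 23.2 ± 13.7 RPKM in controls (SD, n = 4 each). Lsp1beta was then above Lsp2 in all 8 libraries. Over unshared bases only, Lsp2 was at 26.1 ± 13.9 RPKM in 9G8 RNAi and 150.6 ± 89.0 RPKM in controls. On that scale the ratio of Lsp2 to Lsp1beta was 0.218, 0.238, 0.367 and 0.629 in 9G8 RNAi libraries 1 to 4, against 1.14, 1.17, 1.26 and 1.16 in controls 1 to 4. In controls, then, Lsp2 stood level with or slightly above Lsp1beta per unshared base, and in 9G8 RNAi it stood below Lsp1beta in each library. The unshared bases of Lsp2 all lie at its 3′ end, while those of Lsp1beta are its whole exonic length. How evenly reads covered transcripts was not tested, so the order of the 2 RNA levels is not settled. By mean full-length RPKM, Lsp1beta ranked 922 of 17411 genes, Lsp2 2844, Lsp1gamma 9746, Fbp2 11492, Fbp1 13042 and Lsp1alpha 13964. Among the last 3 the values of single libraries overlapped, so their order is not resolved.

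Within control libraries Lsp2 and Lsp1beta kept a nearly fixed proportion. Controls 1 to 4 held 15.8, 16.3, 17.4 and 16.1 Lsp2 counts per 100 Lsp1beta counts, a 1.10-fold range, although the Lsp1beta level itself ranged 3.68-fold. In 9G8 RNAi libraries 1 to 4 the proportion was 3.02, 3.30, 5.09 and 8.72, a 2.88-fold range that lay wholly below the controls. This ratio does not depend on library scaling. It averaged 5.03 ± 2.62 in 9G8 RNAi and 16.4 ± 0.69 in controls and was 3.57-fold lower (log2 difference -1.84, n = 4 each, exact permutation p = 0.0286, or 0.0572 when adjusted over the 4 ratios computed). The ratios were chosen after the values were seen. Among 9G8 RNAi libraries the 2 with the highest long-gene scores, libraries 1 and 2, had the lowest ratios, and library 4, with the lowest score, had the highest ratio. Among controls the scores ran from -0.65 to 0.63 at ratios of 15.8 to 17.4.

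**Figure D3:**
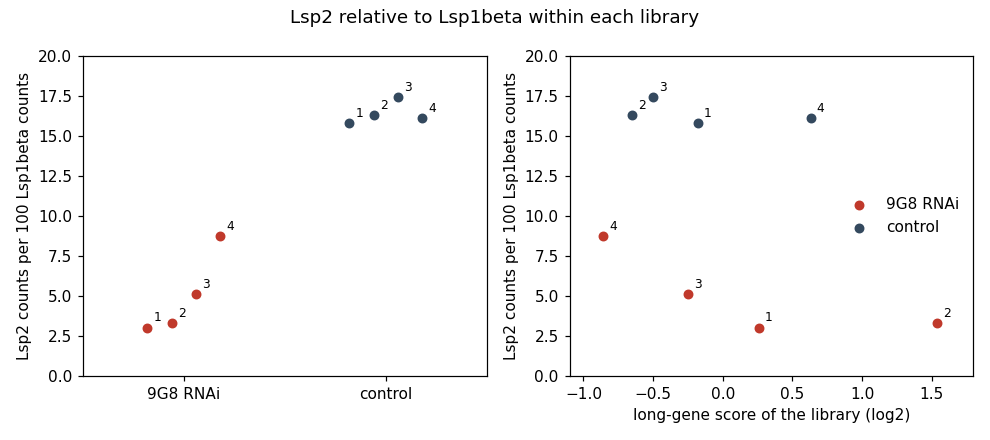
Lsp2 counts per 100 Lsp1beta counts in each library, by genotype (left) and against the long-gene score of the library (right), with points numbered by replicate. Controls lie at 15.8 to 17.4 across their scores and 9G8 RNAi libraries at 3.02 to 8.72.

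Both genes were also set against a gene of the adult fat body. Rfabg (apolpp), which encodes the main lipoprotein of the hemolymph, was at 1492 ± 804.5 CPM in 9G8 RNAi and 1505 ± 520.4 CPM in controls (log2 fold change -0.01, SE 0.44, adjusted p = 0.998 by edgeR), and its sign turned in 6 of 15 alternatives. Lsp2 counts per 100 Rfabg counts were 0.326, 0.457, 0.550 and 2.19 in 9G8 RNAi libraries 1 to 4, against 3.69, 2.49, 3.02 and 5.20 in controls 1 to 4, without overlap (log2 difference -2.41, exact permutation p = 0.0286, adjusted 0.0572, and a difference of -3.00 without 9G8 RNAi 4). Lsp1beta counts per 100 Rfabg counts were 10.8, 13.8, 10.8 and 25.2 in 9G8 RNAi, against 23.3, 15.3, 17.3 and 32.4 in controls. These overlapped, with 9G8 RNAi 4 above 3 of the controls (log2 difference -0.58, exact permutation p = 0.200, adjusted p = 0.267). Rfabg has 11766 exonic bases, and its log2 fold change was -0.35 with the long-gene score as a covariate (SE 0.25, adjusted p = 0.582 by edgeR). The lowest score, -0.86, was that of 9G8 RNAi 4. The part of the score in the ratios to Rfabg was not tested.

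Lsp1gamma encodes the gamma subunit of LSP1 (FBgn0002564, 3L:66430-68995, plus strand, 2501 exonic bases, none shared). It had 21, 14, 10 and 10 counts in 9G8 RNAi libraries 1 to 4, against 31, 10, 17 and 49 in controls 1 to 4. In CPM this was 0.507, 0.302, 0.326 and 0.520 in 9G8 RNAi and 1.22, 0.362, 0.476 and 1.46 in controls. Controls 1 and 4 were high, as they were for Lsp1beta and Lsp2, and the other 6 libraries were alike. The mean was 0.414 ± 0.116 CPM in 9G8 RNAi and 0.881 ± 0.544 CPM in controls (SD, n = 4 each), a log2 fold change of -1.09 that did not pass (SE 0.52, adjusted p = 0.422 by edgeR, and unadjusted exact two-sided permutation p = 0.171). Lsp1gamma counts per 100 Lsp1beta counts were 0.378, 0.0828, 0.223 and 0.279 in 9G8 RNAi and 0.259, 0.198, 0.292 and 0.243 in controls, and the groups overlapped (log2 difference -0.23, exact permutation p = 0.800, also adjusted, and 0.22 without 9G8 RNAi 2). Per length, the beta gene was thus far above the gamma gene in adults of both genotypes, at 75.5 against 0.165 RPKM in 9G8 RNAi and 129.0 against 0.352 RPKM in controls.

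Lsp1alpha encodes the remaining LSP1 subunit (FBgn0002562, X:12490291-12492982, plus strand, 2625 exonic bases). It had 1, 6, 0 and 0 counts in 9G8 RNAi libraries 1 to 4, against 2, 2, 0 and 7 in controls 1 to 4. A count of 0 allows up to 0.0979 CPM in 9G8 RNAi 3, 0.156 CPM in 9G8 RNAi 4 and 0.0839 CPM in control 3, for counting error only. Fbp1, the receptor gene (FBgn0000639, 3L:14094589-14098053, minus strand, 3465 exonic bases), had 3, 12, 2 and 1 counts in 9G8 RNAi and 7, 3, 3 and 3 in controls. Fbp2 (FBgn0000640, 2L:9426784-9427917, plus strand, 1074 exonic bases, 48 of them shared with CG42847) had 7, 4, 2 and 2 counts in 9G8 RNAi and 3, 0, 1 and 4 in controls. In control 2 the count of 0 allows up to 0.109 CPM. For each of these genes the groups overlapped.

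None of these 3 genes passed the low-count filter, and a fit of all genes with any count was used for them. In that edgeR fit the log2 fold change was -0.85 for Lsp1alpha (SE 1.05, adjusted p = 0.868), -0.12 for Fbp1 (SE 0.73, adjusted p = 0.990) and 0.75 for Fbp2 (SE 0.83, adjusted p = 0.841). A difference between the genotypes was not detectable at this depth. For comparison, the 6 salivary glue genes listed as larval transcripts, all too scarce for the filter, Sgs1, Sgs3, Sgs4, Sgs5, Sgs7 and Sgs8, had 0 to 8 counts in any library and at most 0.180 RPKM. The highest values in any library were 0.0795 RPKM for Lsp1alpha, 0.0798 RPKM for Fbp1 and 0.157 RPKM for Fbp2, all below that level. The highest value of Lsp1gamma was 0.584 RPKM, above it. A read weighs more in the RPKM of a short gene, and the glue genes ran from 321 to 3950 exonic bases. By reads in a library the order differed, with at most 12 for Fbp1, 8 for any glue gene, and 7 for Lsp1alpha and for Fbp2.

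**Figure D4:**
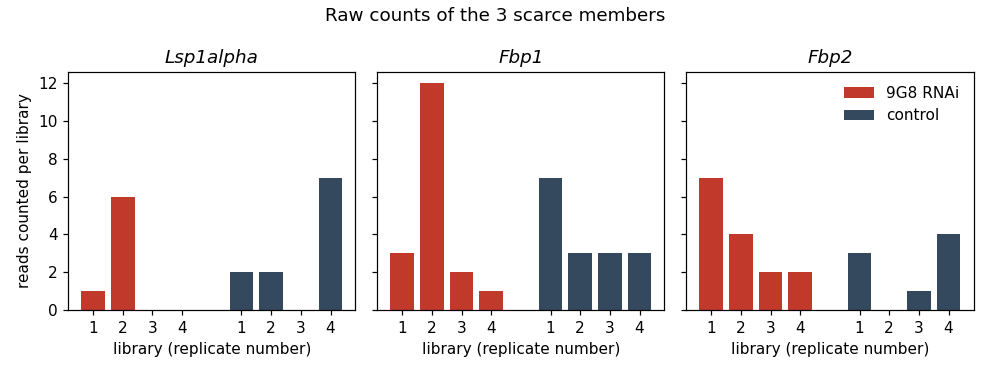
Reads counted for Lsp1alpha, Fbp1 and Fbp2 in each library (bars from 0, by genotype and replicate number). No library holds more than 12 reads for any of them, and the genotypes overlap.

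Together the 6 genes took 0.0137% to 0.0580% of all counts in 9G8 RNAi libraries and 0.0176% to 0.0839% in controls. Exact 95% binomial intervals, which cover counting error only, were 0.0155% to 0.0163% in 9G8 RNAi 1 and 0.0829% to 0.0850% in control 4. Lsp1beta made up 96.5%, 96.6%, 94.9% and 91.7% of these counts in 9G8 RNAi libraries 1 to 4, against 86.1%, 85.8%, 84.9% and 85.9% in controls 1 to 4. Most of the remainder was Lsp2, for which only unshared bases are counted.

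**Figure D5:**
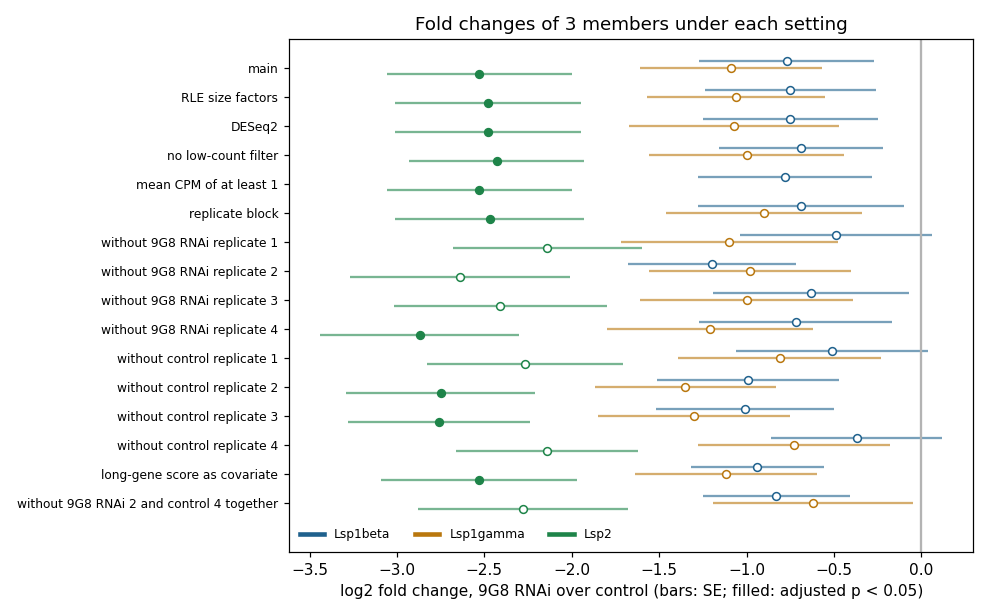
Log2 fold changes of Lsp1beta, Lsp1gamma and Lsp2 (9G8 RNAi over control, bars are SE) in the fit with all libraries and no covariate, at the top, and in each alternative. Filled points passed an adjusted p of 0.05, and each gene stays below 0 in every fit shown, Lsp2 between -2.87 and -2.14.

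The genes whose profiles over the 8 libraries lay nearest each tested member were found by the root mean square difference of centred log2 CPM. Nearest Lsp2 were Scgdelta (difference 0.29), which encodes a sarcoglycan, Grp (0.36) and CG42541 (0.38). These genes were picked for a profile like that of Lsp2 over the same libraries, so a like difference between the genotypes was fixed by the choice, and their levels are a description without a test. Scgdelta was at 10.0 ± 5.75 CPM in 9G8 RNAi and 51.2 ± 23.7 CPM in controls. CG42541 was at 1.62 ± 0.524 CPM in 9G8 RNAi and 8.70 ± 3.96 CPM in controls, and Grp at 2.06 ± 0.925 CPM in 9G8 RNAi and 9.42 ± 7.10 CPM in controls (SD, n = 4 each).

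Nearest Lsp1beta were Sr-CI (0.18), a scavenger receptor gene known from hemocytes, GEFmeso (0.19) and CG8852 (0.21). Sr-CI was at 3.95 ± 1.22 CPM in 9G8 RNAi and 7.04 ± 4.32 CPM in controls. Nearest Lsp1gamma were a pseudogene of ribosomal RNA (CR45863), osp and Cyp4p3, each at a difference of 0.36. At a difference of 0.5 or less lay 295 tested genes for Lsp1beta, 86 for Lsp1gamma and 7 for Lsp2, so the nearest genes of Lsp1beta are little set apart. Between the members, Lsp1beta and Lsp1gamma differed by 0.57, and Lsp2 differed from Lsp1beta by 1.01 and from Lsp1gamma by 1.04. Ordered by distance among the tested genes, Lsp1beta was number 224 from Lsp1gamma and number 384 from Lsp2, and Lsp1gamma was number 601 from Lsp1beta and number 446 from Lsp2. Seen from the other side, Lsp2 was number 5163 from Lsp1beta and number 7068 from Lsp1gamma. The median distance to all tested genes was 1.00 for Lsp1beta, 0.91 for Lsp1gamma and 1.57 for Lsp2.

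Other genes of the storage protein system were read against the same background of 3.21% called by edgeR. Of all 9846 tested genes, 1267 had an unadjusted p under 0.05 by edgeR. DESeq2 called 557 of the 11693 genes to which it gave an adjusted p. Of 17 tested genes for the ecdysone receptor, its early genes and fat body transcription factors, none was called by edgeR or DESeq2 and 2 had an unadjusted p under 0.05, with a median log2 fold change of 0.04 against 0.01 over all tested genes. The most abundant of them, Eip93F, was at 55.7 ± 14.3 CPM in 9G8 RNAi and 81.3 ± 25.5 CPM in controls (adjusted p = 0.628 by edgeR), and Eip75B, a nuclear receptor, at 35.4 ± 8.45 CPM in 9G8 RNAi and 32.9 ± 4.51 CPM in controls (log2 fold change 0.10, adjusted p = 0.962, turning to -0.10 without 9G8 RNAi 2). Of 11 genes for amino acid transport and the TOR and Gcn2 nutrient sensors, none was called by either tool and 1 had an unadjusted p under 0.05 (median 0.35). There crc, the fly ATF4, was at 228.1 ± 43.2 CPM in 9G8 RNAi and 190.5 ± 27.3 CPM in controls (adjusted p = 0.891), and Thor, a translation inhibitor, at 211.1 ± 52.8 CPM in 9G8 RNAi and 127.9 ± 60.3 CPM in controls (adjusted p = 0.501).

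Of the prophenoloxidases, sequence relatives of the hexamerins, and the Adh genes, relatives of Fbp2, 3 of 5 were tested and none was called by edgeR or DESeq2 (1 at an unadjusted p under 0.05, median -0.64). PPO2 was at 71.4 ± 30.5 CPM in 9G8 RNAi and 178.1 ± 66.4 CPM in controls, with the groups apart (log2 fold change -1.32, SE 0.40, adjusted p = 0.122 by edgeR). PPO1 was at 14.8 CPM in 9G8 RNAi and 23.1 CPM in controls (-0.64, adjusted p = 0.630). Adhr was listed at 0 in all libraries, and 2116 of the 2254 exonic bases of Adh are shared with it. Of 11 larval glue and cuticle genes, 2 were abundant enough to test, Lcp3 (1.16, adjusted p = 0.523) and Lcp1 (-0.87, adjusted p = 0.392), and neither passed with edgeR, with DESeq2 or at an unadjusted p under 0.05.

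Of 11 secreted and transport proteins of the adult fat body, edgeR called 1 higher and 0 lower, and 10 did not pass (median -0.01). At an unadjusted p under 0.05 there were 4, and DESeq2 called 2, Yp2 and Tsf1. Tsf1, which encodes transferrin and is named here after its values were seen, was at 2892 ± 2323 CPM in 9G8 RNAi and 10880 ± 4437 CPM in controls, and the groups overlapped (log2 fold change -1.91, SE 0.56, adjusted p = 0.105 by edgeR). Yp2, a yolk protein gene, rose to 5009 ± 1642 CPM in 9G8 RNAi, against 1650 ± 560.9 CPM in controls (log2 fold change 1.60, SE 0.40, adjusted p = 0.0490 by edgeR). It passed in only 3 of 15 alternatives, namely DESeq2, the long-gene score as a covariate and the omission of 9G8 RNAi 4. Elsewhere its adjusted p ran from 0.0520 to 0.309.

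Markers of other cells in the dissected tissue were compared as well. Hemocyte markers summed to 45.5, 87.9, 49.4 and 50.3 CPM in 9G8 RNAi libraries 1 to 4, against 242.8, 118.7, 86.1 and 201.1 CPM in controls 1 to 4. As with Lsp2, controls 1 and 4 were highest, but here 9G8 RNAi 2 lay above control 3. All 5 had negative log2 fold changes, and 2 fell: Pxn, an extracellular matrix peroxidase (-1.54, adjusted p = 0.0465 by edgeR), and He (-1.96, adjusted p = 0.0364). DESeq2 called the same 2, and 4 of the 5 had an unadjusted p under 0.05 by edgeR. Of all 9846 tested genes, 4840 had negative log2 fold changes, 2.21% were called lower and 1267 had an unadjusted p under 0.05. Pxn passed in 4 of 15 alternatives and He in 6. The part of hemocytes in the Lsp2 difference was not tested. Gut markers summed to 11468 to 33561 CPM in 9G8 RNAi and 183.2 to 17571 CPM in controls, and eggshell markers to 40.6 to 8323 CPM in 9G8 RNAi and 14.9 to 8550 CPM in controls. Germline markers ranged from 63.5 to 313.3 CPM in 9G8 RNAi and from 12.4 to 339.9 CPM in controls, and muscle markers from 547.1 to 1367 CPM in 9G8 RNAi and from 642.2 to 1404 CPM in controls. Oenocyte markers ranged from 5887 to 11008 CPM in 9G8 RNAi and from 4649 to 7777 CPM in controls, and neuronal markers from 12.3 to 21.2 CPM in 9G8 RNAi and from 14.0 to 20.2 CPM in controls. Each of these ranges overlapped between the genotypes, and edgeR called none of their genes. At an unadjusted p under 0.05 there were 3 eggshell and 2 gut genes, and DESeq2 called 1 eggshell gene, Vm32E. Their part in the results was not tested.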

How the data were processed

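The deposited files hold raw read counts per gene, 1 library per file, per the file headers in the layout featureCounts writes. The submitters' processing notes name Trimmomatic 0.36, STAR 2.5.2b, featureCounts, Subread 1.5.2 and the build BDGP6. For the annotation release and the read assignment settings, nothing is given in the sources used here. R 4.3.3 and edgeR 4.0.16 were used for the tests. The function filterByExpr by group kept 9846 genes, TMM scaled the libraries, and the quasi-likelihood test compared the genotypes without covariates. The procedure was run on simulated counts with 200 changed genes, each changed by more than any member here. That run does not show how well smaller changes are found. Adjusted p-values are Benjamini-Hochberg over all tested genes, with a threshold of 0.05. Permutation tests ran over all 70 assignments of log2 CPM (prior count 2), and their p-values for members are unadjusted: an adjustment over the 6 members had been planned and was not applied. Alternatives were RLE factors, DESeq2 1.42.0, other filters, a replicate block and each library left out. The long-gene covariate, the paired omission, unshared bases and ratios were added after the data were seen. Named genes were the members, x16, list members called or else the 2 with the highest CPM, and the 3 nearest profiles. Rfabg was added after its values were seen. The members and lists were chosen with earlier results of these data known. Gene identifiers were matched by symbol for all 6 members. No sequence was used, so promoter motifs were not analysed here. Exon sharing was computed from the exon coordinates, and RPKM from the exonic length, in the deposited files.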

Additional observations from a re-analysis of the deposited data

Results flagged for a closer look

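Fbp1 had a library far from the others in each genotype. In 9G8 RNAi it was at 0.258 CPM in library 2, against 0.0520 to 0.0725 CPM in the other 3. In controls it was at 0.277 CPM in library 1, against 0.0839 to 0.109 CPM in the other 3. These values rest on 12 and 7 reads. Such a gap is seen by chance in about 1 of 20 groups, and 12 groups were examined.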

How the results depend on the processing

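Lsp2 was lower in each of its 15 alternatives. It no longer passed in 5 of the 8 fits that left out a library (log2 fold changes from -2.87 to -2.14) nor without 9G8 RNAi 2 and control 4 together (-2.28). Lsp1beta (-1.20 to -0.37) and Lsp1gamma (-1.35 to -0.62) kept their direction and did not pass in any alternative, and Lsp1gamma was too scarce for the filter at a mean CPM of at least 1. For Lsp1alpha DESeq2 gave no adjusted p. Genes called, 316 with all libraries and the settings described, numbered 557 with DESeq2, 141 with the replicate block, 480 with the long-gene covariate, 119 without 9G8 RNAi 2 and control 4, and 162 to 504 with a library left out. At an unadjusted p under 0.05 there were 1267. Same-numbered libraries did not deviate together (correlations of -0.593 to -0.018, against -0.554 to 0.532 for differently numbered ones). No pairing by number was seen, and whether libraries shared a culture or batch was not tested. Under the block Lsp2 gave -2.47 (adjusted p = 0.0492). Among genes named beside the members, signs turned for Eip75B and Rfabg, whose values were near 0, and for x16. Eip75B ran from -0.10 to 0.26 with a library left out. It gave -0.02 with the long-gene covariate and -0.04 without 9G8 RNAi 2 and control 4. Rfabg gave 0.05 without a filter and ran from -0.47 to 0.25 with a library left out. For x16, at -0.63 with all libraries, the range was -1.20 to 0.10 with a library left out. Its sign turned only without control 3. The exact permutation tests kept their side of 0.05 with a prior count of 0.5 and with RLE factors. They were not rerun with a library left out, since 3 against 4 cannot go below 0.0571. With a library left out, the log2 difference in Lsp2 per Lsp1beta ran from -2.15 to -1.64, Lsp1gamma per Lsp1beta from -0.51 to 0.22, Lsp1beta per Rfabg from -0.85 to -0.37, and Lsp2 per Rfabg from -3.00 to -2.08.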
